A study of Mus musculus with 16 samples.

Results

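The 36 genes described here encode chaperones, disulfide isomerases and degradation factors of the endoplasmic reticulum (ER), with the sensors and transcription factors of the unfolded protein response. They were taken by mouse symbol from a list of genes linked to ATF6 and XBP1, and all 36 were found among the 48432 gene identifiers of the deposited table. Of these, 35 passed the filter on low counts, and the exception, Derl3, had no fragment in any library. The cells were C2C12, an established mouse myoblast line at passage 4-8, grown to confluence and then kept in horse serum medium for 5 days to form contractile myotubes. One group of 4 libraries received no stimulation (control), and the other group of 4 libraries received electrical pulse stimulation (EPS), an electric field that makes cultured myotubes contract. EPS was given as 6 ms pulses at 1 Hz and 2.75 V/mm, with the polarity switched at 0.5 Hz. The labels do not say for how long the pulses were applied. All libraries come from a single cell line without nerve or other tissue. Whether the 4 libraries in each group stem from independent cultures is not stated in the labels. The p-values therefore reflect only the spread among these libraries, which may be technical.

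The ER folds proteins that enter the secretory pathway, and in muscle it continues into the sarcoplasmic reticulum, which stores the calcium for contraction. When unfolded proteins build up in its lumen, 3 membrane sensors respond: ATF6 is cut to release a transcription factor, IRE1 (gene Ern1) splices the Xbp1 mRNA so that it encodes an active factor, and PERK (gene Eif2ak3) slows translation and raises ATF4 and CHOP. ATF6 and spliced XBP1 raise the chaperones, isomerases and ER-associated degradation (ERAD) factors listed here. Counts per gene do not separate spliced from unspliced Xbp1 mRNA, and they do not report the cutting of ATF6 protein.

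Part of these genes carry a known promoter element of the response. Since the list was drawn up around ATF6 and XBP1, whose targets are known by this element, its share among the members is a description that partly restates the choice. RefSeq promoter windows (build GRCm38.p6, 250 bases before to 50 after the start site) were found for 31 members, all but Atf6, Hyou1, Hspa13, Derl1 and Manf. The ER stress response element (ERSE) joins a binding site for NF-Y (CCAAT) to one for ATF6 or XBP1 (CCACG), with 9 bases of any kind between them. Searched on both strands, it was present in the windows of 9 of these 31 members and of 37 of 27025 genes in all (0.137%). The shorter ERSE-II, ATTGG and CCACG with 1 base between them, was present in 2 members and in 0.0444% of genes. The unfolded protein response element (UPRE) TGACGTGG was present in 1 member, Vcp, and in 0.714% of genes. The sites are shown with 5 flanking bases on each side, read 5′ to 3′ along the element, with the fixed letters of the element in capitals.
Hspa5 ERSE, chr2:34772020-34772048, plus strand: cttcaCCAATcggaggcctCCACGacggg
Hsp90b1 first ERSE, chr10:86705633-86705661, minus strand: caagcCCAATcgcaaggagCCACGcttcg
Hsp90b1 second ERSE, chr10:86705528-86705556, plus strand: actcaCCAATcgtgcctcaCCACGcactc
Calr ERSE, chr8:84847070-84847098, plus strand: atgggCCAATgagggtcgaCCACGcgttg
Canx ERSE, chr11:50325795-50325823, minus strand: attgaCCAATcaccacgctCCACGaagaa
Pdia6 ERSE, chr12:17266486-17266514, plus strand: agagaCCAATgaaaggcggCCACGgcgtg
Dnajc3 ERSE, chr14:118937822-118937850, plus strand: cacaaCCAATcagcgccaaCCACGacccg
Creld2 ERSE, chr15:88819515-88819543, minus strand: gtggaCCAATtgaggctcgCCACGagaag
Syvn1 ERSE, chr19:6046527-6046555, plus strand: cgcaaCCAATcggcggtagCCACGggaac
Derl3 ERSE, chr10:75893237-75893265, minus strand: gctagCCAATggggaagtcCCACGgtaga
Herpud1 ERSE-II, chr8:94386372-94386392, plus strand: cgctgATTGGgCCACGttgga
Dnajb11 ERSE-II, chr16:22857847-22857867, plus strand: cggcgATTGGcCCACGcctgg
Vcp UPRE, chr4:43000609-43000626, minus strand: ccaatTGACGTGGcgtta
The UPRE of Vcp overlaps a match to the antioxidant response pattern TGACNNNGC, which 13.99% of all genes and 8 of the 31 members carry. No member window held the CHOP-ATF4 pattern TGATGNAAT (1.08% of genes) or the heat shock pattern (GAA, TTC and GAA, each 2 bases apart; 0.662% of genes), which says only that these letters are not in these windows. A match describes letters, and binding was not measured.

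**Figure D1:**
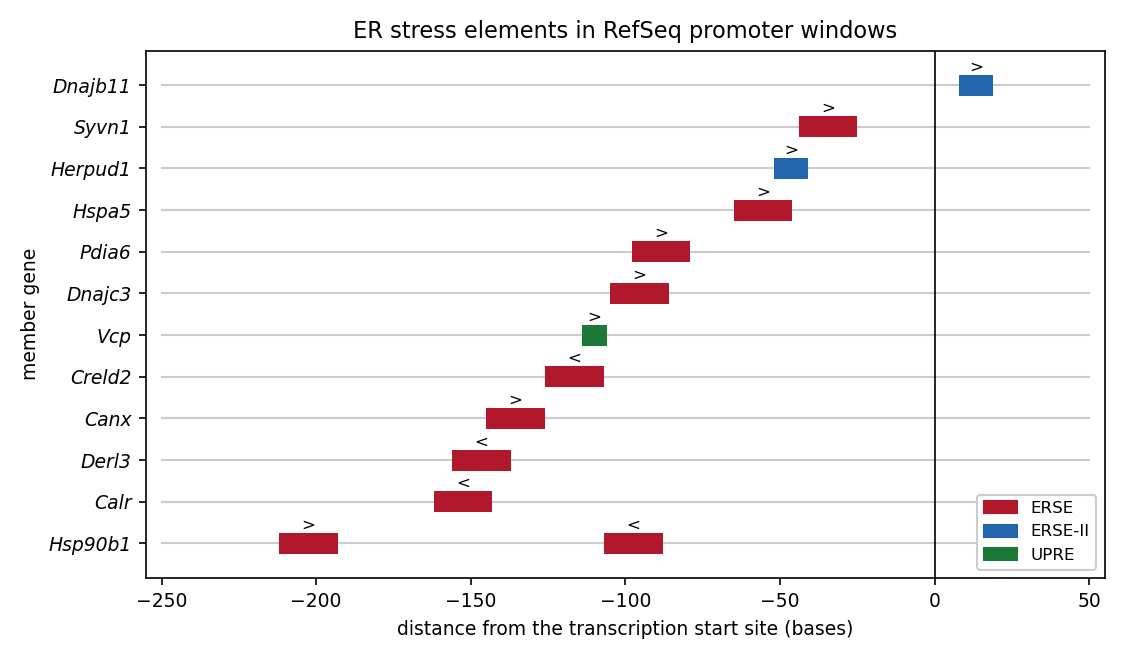
Position of the elements in the promoter windows of the 12 members that carry one, in bases from the transcription start site (x axis), with ERSE in red, ERSE-II in blue and UPRE in green; the sign above each bar gives the strand relative to the gene. Hsp90b1 carries 2 ERSE, and the only element that begins after the start site is the ERSE-II of Dnajb11, at base 8.

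The fold changes of members with and without an ERSE or ERSE-II are given side by side. The 10 tested members with an ERSE or ERSE-II had a median log2 fold change (EPS against control) of 0.15, and 0 of the 10 were called by edgeR's quasi-likelihood test, with or without the replicate number as a block (0 and 2 at an unadjusted p under 0.05; 0 by DESeq2). Over all genes 3.06% were called without the block, so a count of 0 among 10 says little. The 20 members with a window and neither element had a median of 0.00, and 0 were called without the block (3 at an unadjusted p under 0.05). With the block 2 were called, Dnajb9 and Vcp, which carries the UPRE, and DESeq2 called 3. Over all genes, 7.31% rose and 4.78% fell with the block, and DESeq2 called 6.76%. Without the block 18.5% of all genes had an unadjusted p under 0.05. For EPS against control, this share was taken only for the fit without the block. Counts at an unadjusted p under 0.05 with the block, here and in later paragraphs, therefore have no background, and nothing is concluded from them. The difference between these 2 sets was not tested. Among the other 28 genes with an ERSE, 9 were tested, with a median of -0.16, 0 called without the block and 1 lower with it.

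Upstream sequence is given for 3 of the members that the results turn on, from 250 bases before the start site up to the start site, on the strand of the gene. Hspa5 is the standard reporter of the response and carries an exact ERSE match, in capitals (window chr2:34771840-34772139, plus strand). The search counted exact matches only, so copies with other letters would be missed, here and in the members listed as without an element.
Hspa5: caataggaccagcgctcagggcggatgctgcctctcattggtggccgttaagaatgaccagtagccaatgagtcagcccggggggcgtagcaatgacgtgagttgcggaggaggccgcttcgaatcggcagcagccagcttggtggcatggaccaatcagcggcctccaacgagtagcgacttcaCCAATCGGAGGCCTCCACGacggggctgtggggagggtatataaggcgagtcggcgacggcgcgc
Dnajb9 had the largest fold change and holds the half-elements CCAAT and CCACG, in capitals, without the spacing of an ERSE (window chr12:44210019-44210318, minus strand). These short letters are common, with CCAAT in 41.1% and CCACG in 35.5% of all genes.
Dnajb9: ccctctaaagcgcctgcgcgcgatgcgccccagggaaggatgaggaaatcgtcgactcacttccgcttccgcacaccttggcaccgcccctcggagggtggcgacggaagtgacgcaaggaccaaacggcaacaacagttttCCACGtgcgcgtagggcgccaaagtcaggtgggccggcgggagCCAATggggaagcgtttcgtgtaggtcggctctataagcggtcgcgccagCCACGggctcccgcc
Vcp had the next largest fold change and carries the UPRE in capitals (window chr4:43000458-43000757, minus strand).
Vcp: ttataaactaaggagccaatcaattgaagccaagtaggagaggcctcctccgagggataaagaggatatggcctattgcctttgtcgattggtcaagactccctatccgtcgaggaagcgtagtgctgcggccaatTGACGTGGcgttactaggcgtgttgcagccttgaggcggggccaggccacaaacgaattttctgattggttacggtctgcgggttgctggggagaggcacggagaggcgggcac

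The libraries differ in ways that touch these results. Control replicate 2 held 0.354 M fragments, while the other 7 libraries held 12.6 to 20.73 M. Same-numbered control and EPS libraries deviated together from their group means, though control 3 with EPS 4 and control 4 with EPS 3 did so nearly as much. The numbers were taken to pair the libraries, and the fit with the replicate number as a block is given beside the fit without it. This pairing was read from these same data and not from the labels, so every call made with the block depends on it. EPS replicates 1 and 2 also stood apart from EPS replicates 3 and 4. Deviations in log2 CPM correlated across genes with transcript length (log2), with r of 0.16 and 0.21 for EPS replicates 1 and 2 and of -0.29 and -0.25 for EPS replicates 3 and 4. In control libraries 1 to 4 this r was -0.03, 0.11, -0.20 and -0.19. With GC content, r was 0.21, -0.24, 0.23 and 0.22 in control libraries 1 to 4. In EPS libraries 1 to 4 it was 0.02, -0.17, 0.25 and 0.20. Results are therefore also given within each set of replicates. CPM (fragments scaled to a common TMM-adjusted library size) compares a gene between libraries, and the authors' deposited FPKM, which is per length, compares genes.

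Most of the 35 genes differed little between EPS and control. The median log2 fold change of the members was 0.03, against 0.01 over all 13987 genes tested, and 29 of 35 members (82.9%) lay within 0.5 of 0, against 73.4% of all genes. In edgeR without the block, 0 of 35 members passed an adjusted p of 0.05, against a background of 3.06% of all genes (2.3% higher and 0.758% lower), and 4 members had an unadjusted p under 0.05 (11.4%, against 18.5% of all genes). DESeq2 called 3 members, Dnajb9, Vcp and Serpinh1, all higher, where it called 6.76% of all genes (4.62% higher). With the replicate block, 3 of 35 members rose (8.57%, against 7.31% of all genes), Dnajb9, Vcp and Hspa13, and 0 fell (4.78% of all genes). The share of members that rose with the block was near that of all genes. Dnajb9 and Vcp also passed the block fit with offsets for transcript length and GC content, which called 4.49% of all genes higher, while Hspa13 did not (adjusted p = 0.146).

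**Figure D2:**
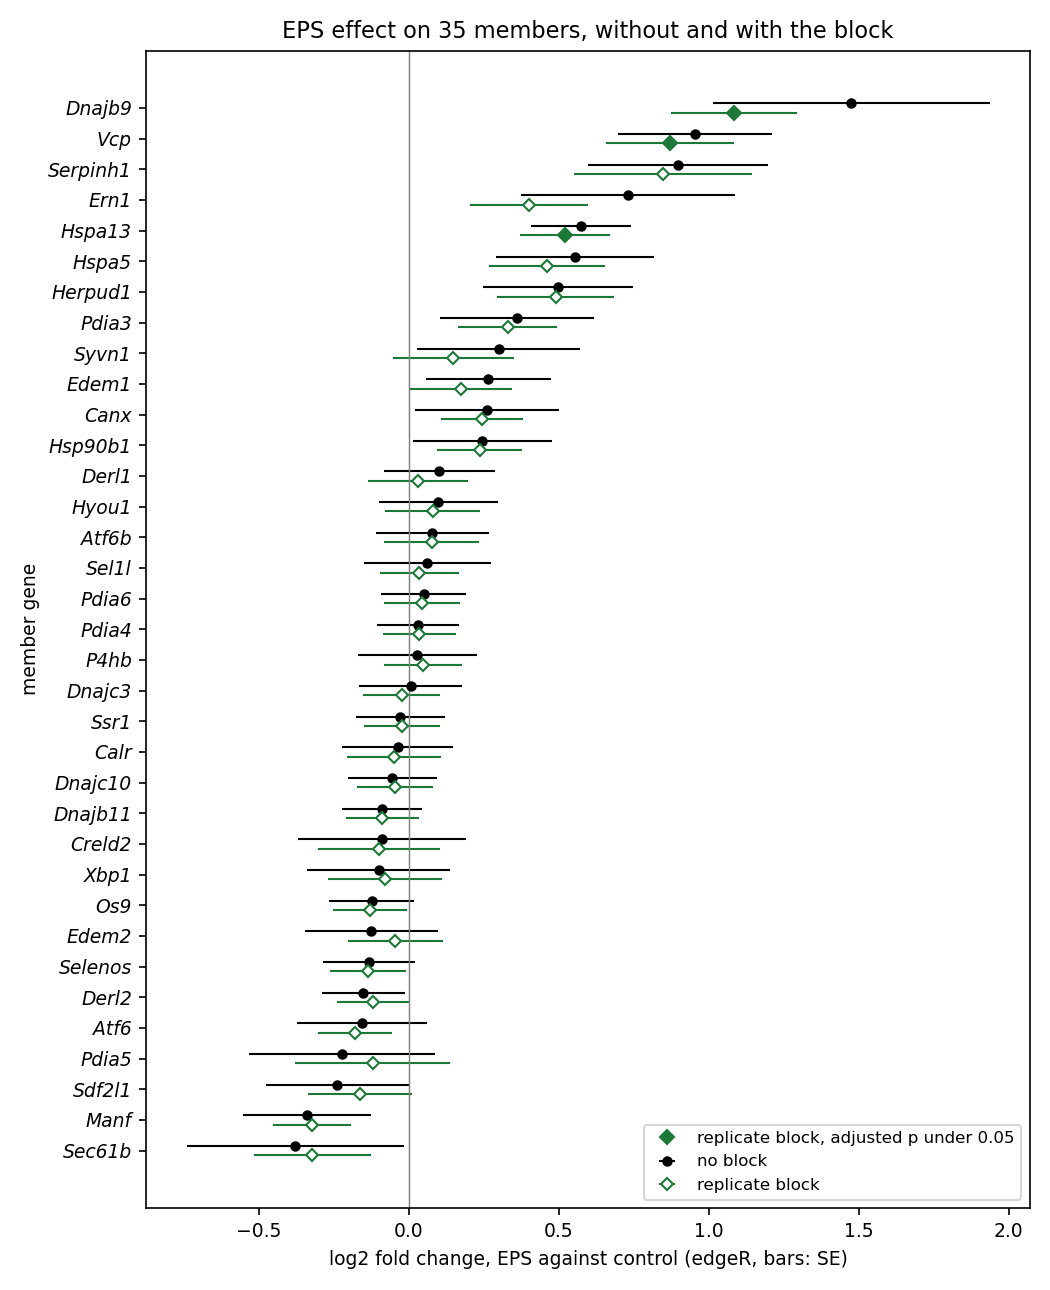
Log2 fold change of each of the 35 tested members (x axis; bars, SE) in edgeR without the block (black circles) and with the replicate block (green diamonds, filled where the adjusted p was under 0.05). The estimates run from -0.38 for Sec61b to 1.48 for Dnajb9, and 3 diamonds are filled, those of Dnajb9, Vcp and Hspa13.

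The HSP70 and HSP90 class holds the main folding machines of the lumen. Hspa5 encodes BiP, the HSP70 that binds unfolded chains and holds the sensors inactive. Its CPM in control libraries 1 to 4 was 880, 929, 874 and 938, and in EPS libraries 1 to 4 it was 1370, 2081, 893 and 971. EPS replicates 1 and 2 lay above every control library, while EPS replicates 3 and 4 lay inside or just above the control range. The log2 fold change was 0.55 (SE 0.26, adjusted p = 0.295) without the block and 0.46 (SE 0.19, adjusted p = 0.154) with it. Hsp90b1, which encodes GRP94, the HSP90 of the ER, was at 862 ± 209.98 CPM in control and 1017 ± 249.9 CPM in EPS (mean ± SD, n = 4 each). Hyou1, an exchange factor for BiP of the HSP110 class, had a log2 fold change of 0.10 (SE 0.20).

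Hspa13 encodes an HSP70-like ATPase attached to microsomes, and it was the only gene of this class called in the fit with the replicate block. Control libraries 1 to 4 had 93.7, 76.7, 92.6 and 91.8 CPM, and EPS libraries 1 to 4 had 145, 163, 111 and 117 CPM. Every EPS library lay above every control library. The lowest control value, in replicate 2, rests on 27 fragments. The log2 fold change was 0.52 (SE 0.15, adjusted p = 0.0478) with the block and 0.57 (SE 0.17, adjusted p = 0.0968) without it.

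Lectin chaperones hold glycoproteins while they fold. Calr, which encodes calreticulin, had the highest level per length of all members, at 470.5 FPKM ± 27.4 (SD, n = 4) in control. Its CPM was 1515, 1668, 1455 and 1565 in control libraries 1 to 4 and 1589, 1125, 1652 and 1677 in EPS libraries 1 to 4. EPS replicate 2 was the lowest of the 8 libraries and the other EPS libraries lay in or just above the control range, for a log2 fold change of -0.04 (SE 0.18, adjusted p = 0.943). Canx, which encodes the membrane-bound calnexin, went from 862 ± 209 to 1029 ± 281.5 CPM (mean ± SD, n = 4 each), a log2 fold change of 0.26 (SE 0.24, adjusted p = 0.612).

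Disulfide isomerases form and rearrange the disulfide bonds of secreted proteins. Of the 5 members, 0 passed the test with or without the block (edgeR; 0 at an unadjusted p under 0.05 in either fit and 0 by DESeq2), and the log2 fold changes ran from -0.22 for Pdia5 to 0.36 for Pdia3. P4hb, the classical isomerase and a subunit of collagen prolyl hydroxylase, was at 793 ± 168 CPM in control and 812 ± 105 CPM in EPS (mean ± SD, n = 4 each). Pdia3 works with calnexin and calreticulin. Its CPM was 215, 352, 194 and 268 in control libraries 1 to 4 and 390, 427, 238 and 246 in EPS libraries 1 to 4. EPS replicates 1 and 2 were above all controls, EPS replicates 3 and 4 were not, and the adjusted p was 0.496. The fold changes of Pdia4 and Pdia6 were 0.03 (SE 0.14) and 0.05 (SE 0.14) on the log2 scale. Pdia5 was the least abundant tested member per length, at 1.51 FPKM ± 0.421 (SD, n = 4) in control, and had 1 fragment in control replicate 2.

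Among the J-domain co-chaperones, which pass clients to BiP and stimulate its ATPase, only Dnajb9 was called in the fit with the replicate block. Dnajb9 encodes ERdj4, a target of spliced XBP1 that also acts on IRE1. Control libraries 1 to 4 had 52.2, 88.1, 50.6 and 45.2 CPM, and EPS libraries 1 to 4 had 158, 311, 73.4 and 70.9 CPM. Each EPS library was above the control library of the same number, but the groups overlapped because control replicate 2, which rests on 31 fragments, lay above EPS replicates 3 and 4. In the fits, Dnajb9 had a log2 fold change of 1.08 (SE 0.21, adjusted p = 0.00911) with the block and of 1.48 (SE 0.46, adjusted p = 0.119) without it. Dnajb11, Dnajc3 and Dnajc10 had log2 fold changes of -0.09, 0.01 and -0.05 (SE 0.13, 0.17 and 0.15).

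**Figure D3:**
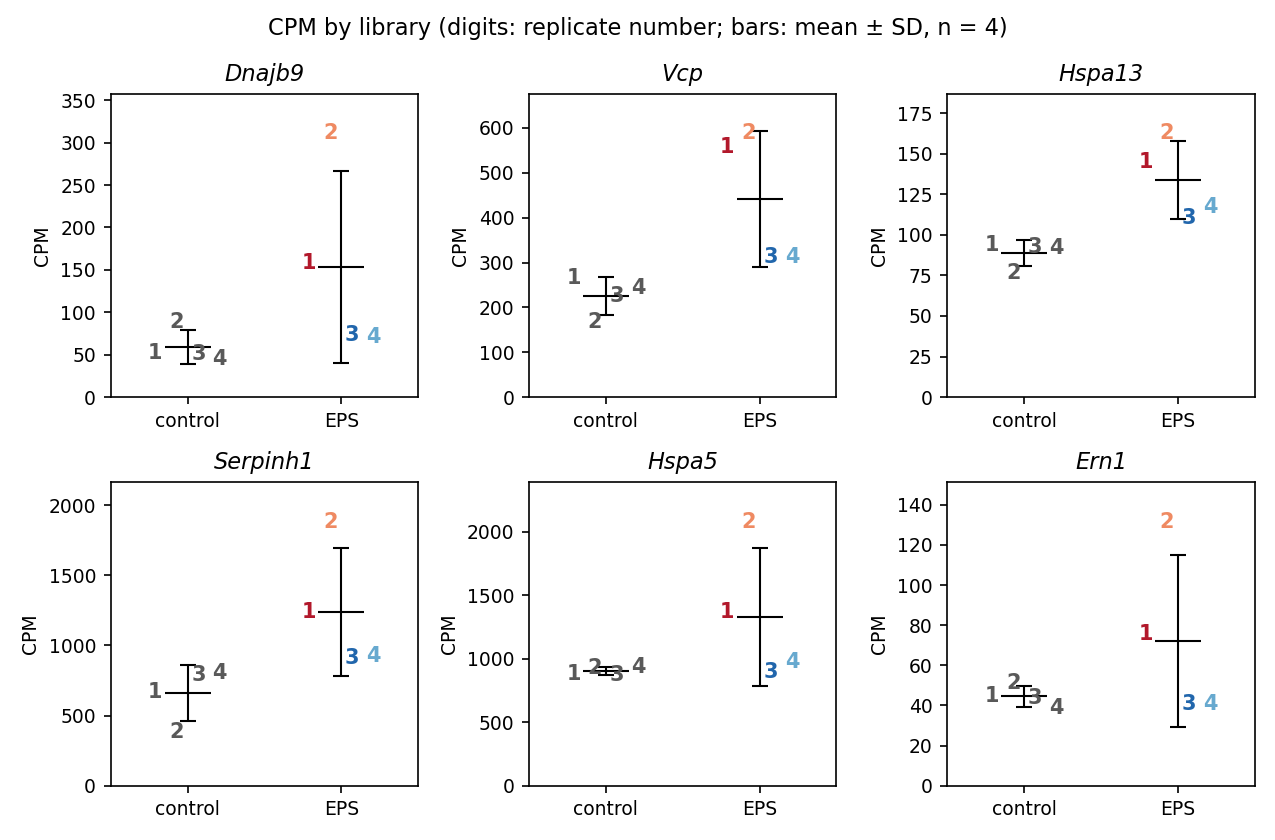
CPM in each library for 6 members with the largest fold changes (y axes start at 0); digits are replicate numbers and the bars give mean ± SD (n = 4). EPS replicates 1 and 2 are the highest libraries for all 6 genes, and EPS replicates 3 and 4 lie above every control library for Vcp, Hspa13 and Serpinh1.

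The small luminal proteins Sdf2l1, Manf and Creld2 are typical readouts of the ATF6 and XBP1 branches. Of the 3, 0 were called by edgeR with or without the block (0 and 1 at an unadjusted p under 0.05; 0 by DESeq2). Their log2 fold changes were -0.24 (SE 0.24), -0.34 (SE 0.21) and -0.09 (SE 0.28). Manf, a secreted factor that binds BiP, had 74.4, 48.3, 88.6 and 94.5 CPM in control libraries 1 to 4 and 51.4, 51.8, 71.4 and 76.5 CPM in EPS libraries 1 to 4. In pairs 1, 3 and 4 the EPS library was the lower one, and in pair 2, where the control value rests on 17 fragments, it was not. The adjusted p was 0.140 with the block. Manf was called lower with the block when pair 2 was left out, a fit that called 8.23% of all genes lower. Manf also shares exon sequence with Rbm15b on the same strand, so its fragments cannot be assigned with certainty. Creld2 and Sdf2l1 had 2 and 3 fragments in control replicate 2.

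Serpinh1 encodes HSP47, the collagen chaperone of the ER, which is also known as a heat shock gene. It had 665, 381, 789 and 805 CPM in control libraries 1 to 4 and 1239, 1882, 908 and 924 CPM in EPS libraries 1 to 4. The groups did not overlap, and EPS replicate 2 was the highest library, followed by EPS replicate 1. The log2 fold change was 0.90 (SE 0.30, adjusted p = 0.142) without the block and 0.85 (SE 0.30, adjusted p = 0.0937) with it, so neither edgeR fit called it, while DESeq2 did (adjusted p = 0.0471). In a list of 18 collagens and collagen-modifying enzymes, 0 were called by edgeR with or without the block (4 and 1 at an unadjusted p under 0.05), and 0 by DESeq2. Over all genes 3.06% were called without the block, and 7.31% rose and 4.78% fell with it. In the block fit with length and GC offsets 2 of the 18 fell, where 1333 of 13947 genes were called in either direction. Within replicates 1 and 2, 1 of the 18 rose, where 8.52% of all genes rose. The median log2 fold change of that list was -0.06, and Col3a1, its most abundant gene, went from 2653 ± 1361 to 2032 ± 1197 CPM (mean ± SD, n = 4 each).

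ERAD takes misfolded proteins from the lumen to the cytosol. Vcp encodes the p97 ATPase that pulls them out of the membrane, and it also serves many cytosolic processes. Its CPM was 266.5, 168, 226 and 243 in control libraries 1 to 4 and 557, 588.5, 311 and 312 in EPS libraries 1 to 4. All EPS libraries were above all control libraries, with EPS replicates 1 and 2 above EPS replicates 3 and 4. In all, groups did not overlap, with EPS above, in 3 of 35 members (8.57%; Vcp, Hspa13 and Serpinh1), against 9.32% of all genes, and with EPS below in 0 of 35, against 4.83%. The log2 fold change was 0.87 (SE 0.21, adjusted p = 0.0256) with the block and 0.95 (SE 0.26, adjusted p = 0.0762) without it. In edgeR without the block, Vcp was past the threshold when EPS replicate 3 or EPS replicate 4 was left out (adjusted p = 0.0482 and 0.0476). These were its lowest EPS libraries, and the 2 fits each called 2.99% of all genes higher. Leaving out any of the other libraries gave edgeR adjusted p from 0.122 to 0.228, so Vcp was not called there.

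The membrane complex of ERAD marks and moves these proteins. Of its 7 members, 6 were tested, 0 were called with or without the block (edgeR; 0 and 1 at an unadjusted p under 0.05, 0 by DESeq2), and log2 fold changes ran from -0.15 to 0.50. Herpud1, a scaffold of the complex and an early target of the response, had 364, 170.5, 290 and 232.5 CPM in control libraries 1 to 4 and 454, 451, 296 and 310 CPM in EPS libraries 1 to 4. EPS replicates 1 and 2 were above all controls and EPS replicates 3 and 4 were inside the control range, with a log2 fold change of 0.50 (SE 0.25, adjusted p = 0.321) and one of 0.49 (SE 0.20, adjusted p = 0.136) with the block. The ubiquitin ligase Syvn1 (HRD1), its partner Sel1l and the channel proteins Derl1 and Derl2 had log2 fold changes of 0.30, 0.06, 0.10 and -0.15, and Selenos, which links VCP to the complex, had -0.13. Derl3 had 0 fragments in all libraries, which allows a level of up to 8.46 CPM in control replicate 2 and, in the other 7 libraries, of up to 0.145 to 0.238 CPM (3 fragments, counting error only). The lectins Edem1, Edem2 and Os9, which pick misfolded glycoproteins, had log2 fold changes of 0.27, -0.12 and -0.12.

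Among the sensors and factors, 0 of 4 were called by edgeR with or without the block (0 at an unadjusted p under 0.05 in either fit; 0 by DESeq2). Xbp1 was at 128 ± 46.2 CPM in control and 124 ± 9.35 CPM in EPS (mean ± SD, n = 4 each), a log2 fold change of -0.10 (SE 0.24, adjusted p = 0.866). Atf6 had 345 ± 65.9 and 308 ± 74.7 CPM (mean ± SD, n = 4 each), with a log2 fold change of -0.16 (SE 0.22, adjusted p = 0.751). Its relative Atf6b had a log2 fold change of 0.08 (SE 0.19). Ern1 had 44.6, 51.1, 43.6 and 38.5 CPM in control libraries 1 to 4 and 75.5, 132, 40.9 and 40.6 CPM in EPS libraries 1 to 4. Only EPS replicates 1 and 2 lay above the controls, and the log2 fold change was 0.73 (SE 0.36, adjusted p = 0.307) without the block and 0.40 (SE 0.20, adjusted p = 0.217) with it. The translocon subunits Sec61b and Ssr1, through which new chains enter the ER, stood at -0.38 (SE 0.36) and -0.03 (SE 0.15) in log2 fold change. Sec61b had 2 fragments in control replicate 2.

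**Figure D4:**
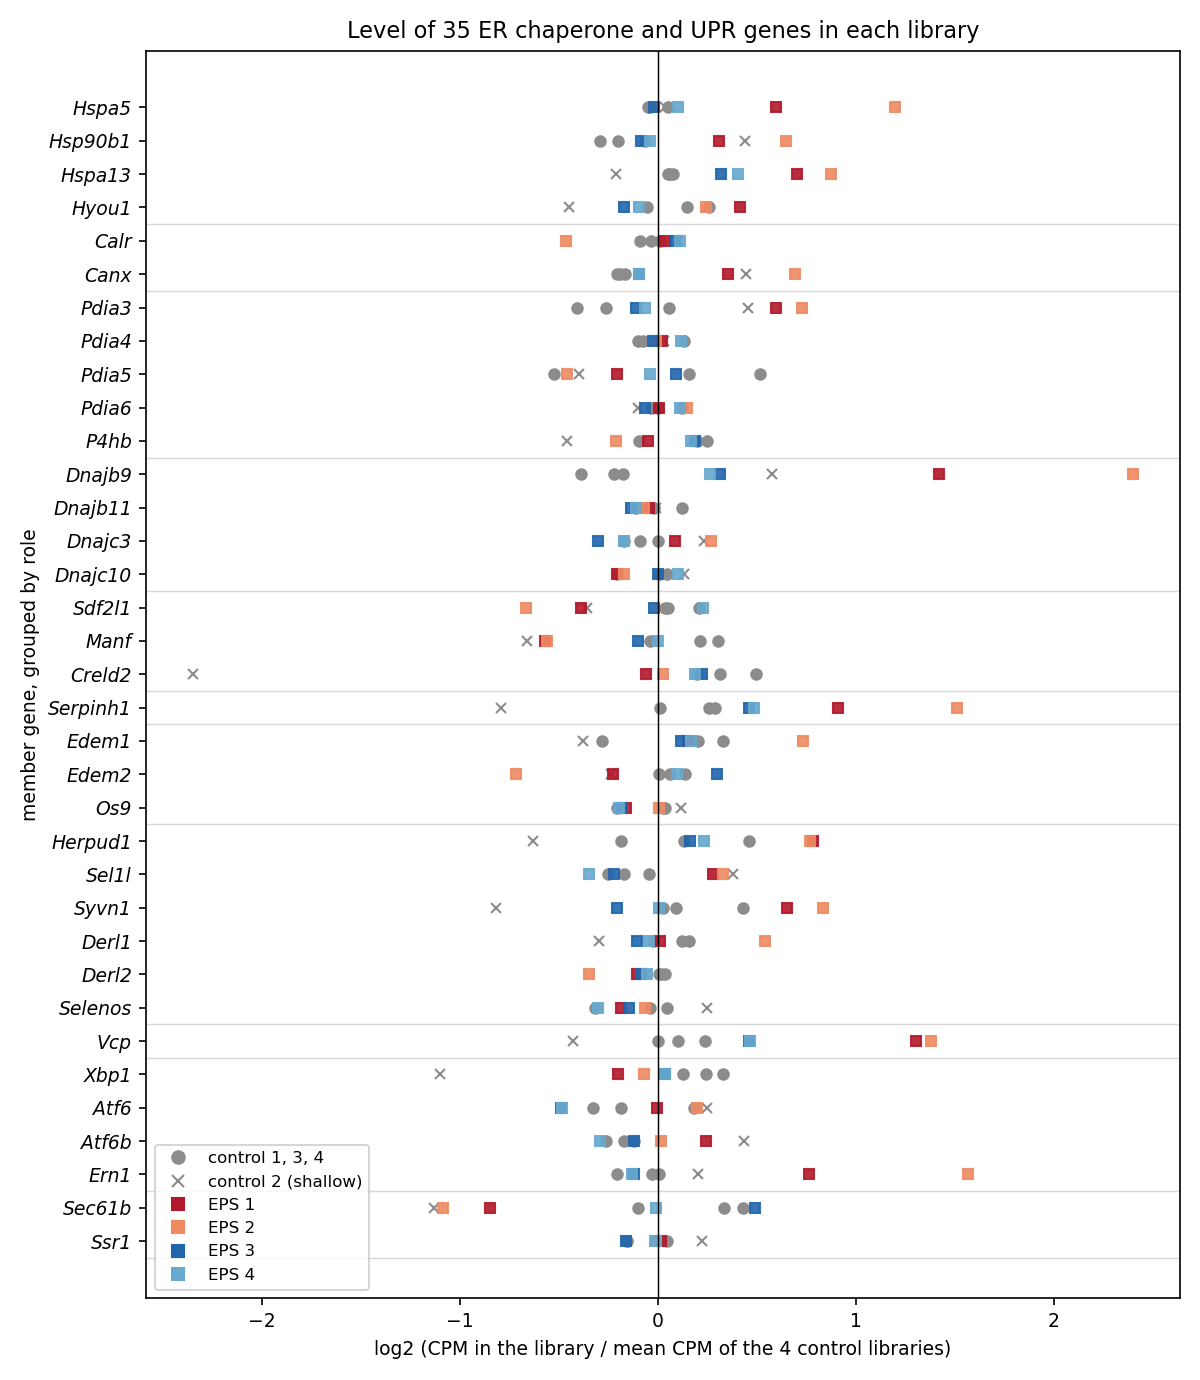
Level of each of the 35 tested members in each library, as log2 of its CPM over the mean CPM of the 4 control libraries (x axis), with control libraries in grey (cross, shallow replicate 2) and EPS libraries in colour. All 4 EPS points lie to the right of all control points for Vcp, Hspa13 and Serpinh1, and the point furthest to the right is that of EPS 2 for Dnajb9.

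More members were called within replicates 1 and 2 than within replicates 3 and 4, but the difference between the sets did not pass its own test. The labels do not define these sets, which were chosen after EPS replicates 1 and 2 were seen to stand apart in these data. Calls within a set are therefore a description and no independent support. Within replicates 1 and 2, 6 of 35 members rose (17.1%, against 8.52% of all genes), Dnajb9, Vcp, Serpinh1, Ern1, Hspa5 and Hspa13, and 0 fell (4.11% of all genes). Their log2 fold changes there were 1.92, 1.34, 1.55, 1.17, 0.93 and 0.80 (edgeR adjusted p = 0.00874, 0.00545, 0.00885, 0.0252, 0.0250 and 0.0209). Within replicates 3 and 4 these 6 genes had log2 fold changes of 0.59, 0.41, 0.20, -0.01, 0.04 and 0.31. There 0 of 35 members were called (1.09% of all genes higher and 0.293% lower). In edgeR, 10 of 35 members (28.6%) had an unadjusted p under 0.05 within replicates 1 and 2, and 0 of 35 within replicates 3 and 4. The share of all genes at that threshold was not taken within either set, so these 2 counts have no background. The test of the difference between the sets passed in 0 of 35 members and in 0 of all 13987 genes, and 6 of 35 members (17.1%, against 10.6% of all genes) had an unadjusted p under 0.05. The smallest was that of Serpinh1, with a difference of -1.345 on the log2 scale (unadjusted p = 0.00636, adjusted p = 0.383). The control side of replicates 1 and 2 holds only 1 deep library. The relation to transcript length given above moves with the same split. In the block fit with offsets for length and GC content over all libraries, Hspa5, Ern1 and Serpinh1 had adjusted p = 0.407, 0.357 and 0.0954, against 0.154, 0.217 and 0.0937 with the block alone, so they were called in neither. Their log2 fold changes were 0.23, 0.25 and 0.61 with the offsets and 0.46, 0.40 and 0.85 without them. Dnajb9 and Vcp were called with the offsets too (adjusted p = 0.0241 and 0.0459). Such offsets were not applied within the sets.

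**Figure D5:**
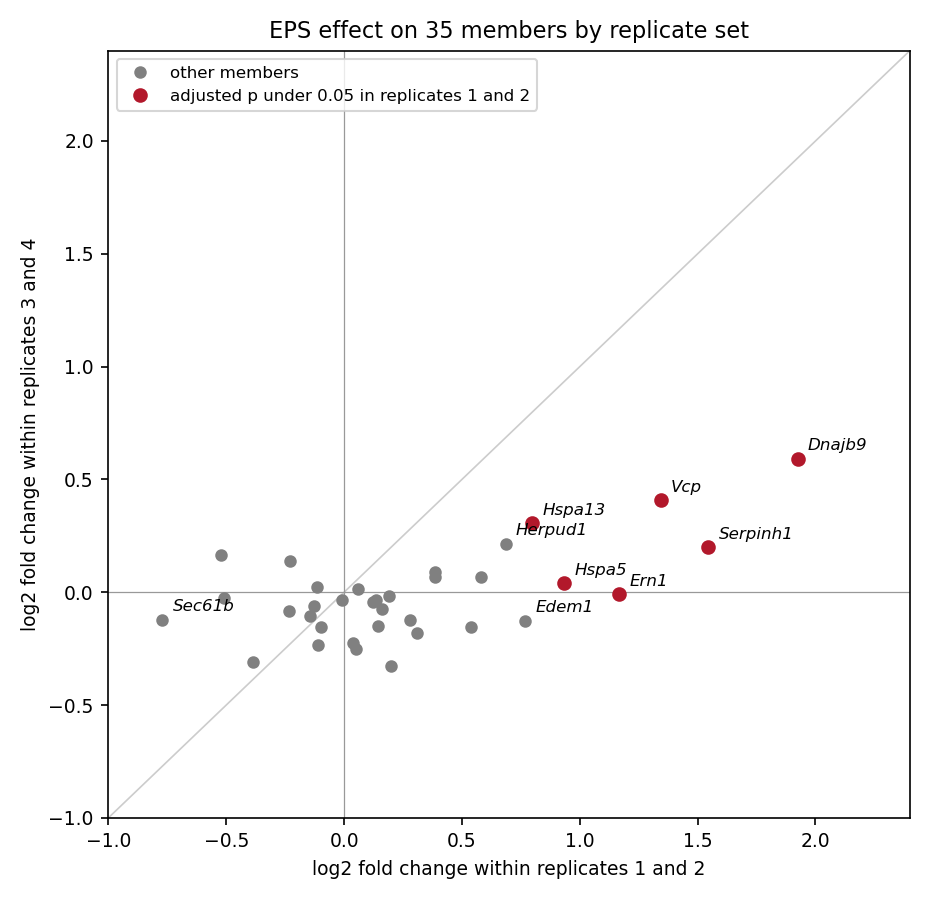
Log2 fold change of each tested member within replicates 1 and 2 (x axis) and within replicates 3 and 4 (y axis), from 1 edgeR fit; red points had an adjusted p under 0.05 in replicates 1 and 2, and the grey diagonal marks equal values. All 6 red points lie below the diagonal, and Dnajb9 has the largest value on both axes.

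The summed level of all members, which the most abundant genes carry, was 9022, 9452, 9064 and 9412 CPM in control libraries 1 to 4 and 11618, 13478, 9457 and 9713 CPM in EPS libraries 1 to 4. EPS replicates 1 and 2 stood above the rest, and EPS replicates 3 and 4 were just above the highest control. The median member did not follow this order: its log2 level over the control mean was 0.04, 0.22, -0.05 and 0.07 in EPS libraries 1 to 4 and -0.06 to 0.05 in the control libraries. The same median over all tested genes was 0.12, 0.10, 0.11 and 0.12 in EPS libraries 1 to 4. In the control libraries it ran from -0.19, in replicate 2, to 0.08.

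A list of genes of PERK, ATF4 and CHOP had more calls. Of 20 tested genes of PERK, ATF4 and CHOP, 8 rose without the block (2.3% of all genes) and 11 with it (7.31% of all genes), 0 fell in either fit, and the median log2 fold change was 0.99. The difference from the members was not tested, and the PERK gene itself, Eif2ak3, had a log2 fold change of 0.13 (SE 0.25, adjusted p = 0.832). Ddit3, which encodes CHOP, rose from 11.2 ± 3.68 to 88.95 ± 58.6 CPM (mean ± SD, n = 4 each), with an adjusted p of 0.00737 in edgeR without the block. Eif2ak3 and Ddit3 fall outside the naming rule and were chosen after their values were seen. Trib3, a CHOP target, and Chac1, an enzyme that breaks down glutathione, showed log2 changes of 3.31 (SE 0.42, adjusted p = 0.00337) and 3.32 (SE 0.47, adjusted p = 0.00489). Slc7a11, the cystine transporter subunit, and Atf3, a stress-induced transcription factor, reached 6.25 (SE 0.56) and 6.12 (SE 0.80) in log2 fold change. Within replicates 3 and 4 the median of this list was 0.68, against -0.03 for the 35 ER members. ATF4 and CHOP targets also respond to eIF2alpha kinases other than PERK, and which pathway raised these genes was not tested.

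Without the block, where 3.06% of all genes were called, edgeR called 0 of 28 other folding and glycosylation enzymes, 0 of 20 other ERAD factors, 0 of 24 translocon, signal peptidase and COPII genes, 0 of 14 regulators and 0 of 16 genes of the sarcoplasmic reticulum calcium store. The numbers at an unadjusted p under 0.05 were 4, 4, 0, 1 and 3, and DESeq2 called 0, 1, 0, 0 and 0. With the block, edgeR called 2, 3, 0, 0 and 1, where 7.31% of all genes rose and 4.78% fell; the 3 ERAD factors all rose. The median log2 fold changes were 0.01, 0.02, -0.12, -0.15 and -0.10. Atp2a2, the calcium pump of the ER and slow-fibre sarcoplasmic reticulum, had 1820 ± 403 CPM in control and 2183 ± 773 CPM in EPS (mean ± SD, n = 4 each; adjusted p = 0.657). Calu, Ubxn4, Ssr3 and Tmbim6, the most abundant genes of the other lists, had log2 fold changes of 0.06, 0.67, -0.10 and 0.19.

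Markers of the cell type moved with the groups. Of 10 myotube markers 9 were tested (Ttn was skipped in the deposited table). Without the block 0 were called (6 at an unadjusted p under 0.05), while 7 fell with it and 4 fell by DESeq2. Over all genes, 3.06% were called without the block and 18.5% had an unadjusted p under 0.05. With the block 7.31% rose and 4.78% fell, and DESeq2 called 6.76%. The summed level of the myotube markers was 18811 to 20446 CPM in control and 11563 to 15428 CPM in EPS, with 0 tested markers listed at 0 in any library. Myh3, the embryonic myosin heavy chain, went from 7252 ± 431.5 to 5115 ± 891.5 CPM (mean ± SD, n = 4 each). In bulk RNA, fewer myotubes and less of these RNAs per myotube cannot be told apart. The 6 markers of undifferentiated myoblasts summed to 374 to 789 CPM in control and 291 to 646 CPM in EPS, and 0 were called with or without the block (0 and 3 at an unadjusted p under 0.05; 0 by DESeq2). The 9 immune and endothelial markers summed to 4.87 to 8.52 CPM in control and 8.96 to 44.7 CPM in EPS, highest in EPS replicates 2 and 1. Of these markers 3 were tested, with 0 called without the block (1 at an unadjusted p under 0.05), 0 by DESeq2 and 1 higher with the block, Cd14 (also with the offsets). Within replicates 1 and 2, Cd68 was called higher (edgeR adjusted p = 0.0246). Adgre1 was at 0 in all libraries and Ptprc in all but EPS replicates 1 and 2 (0.309 and 0.241 CPM), while Cd68 reached 27.0 CPM and Pecam1 10.8 CPM in EPS replicate 2. The 7 adipocyte and epithelial markers summed to 5.68 to 11.5 CPM over all libraries. The part of these markers in the values of the ER genes was not tested.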

How the data were processed

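Total RNA of 8 libraries, each sequenced on 2 lanes that were counted as 1 replicate, was prepared with a stranded kit, per the labels. The authors deposited estimated counts (fragments per gene) and FPKM, made with STAR 2.5.1, Cufflinks and Cuffdiff 2.2.1 on mm10, per the submitters' processing notes. No source used here names the annotation or the strand setting, so fragments of Hsp90b1, Pdia3, Pdia6, Manf, Syvn1 and Derl2 may be shared with overlapping genes. Vcp, Dnajb9 and Pdia4 also overlap genes, 1700022I11Rik, Mir5627 and Mir704, which were at 0 CPM in both groups. Of the nonzero counts 93.3% were whole, and the rest were rounded. Symbols matched 48051 of 48432 identifiers, and 46 genes skipped for depth were left out.

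Counts were tested with edgeR 4.0.16 (quasi-likelihood, TMM, filterByExpr with a minimum count of 10; Benjamini-Hochberg over all genes, threshold 0.05) in R 4.3.3. Same-numbered control and EPS libraries correlated in their deviations at 0.300, 0.214, 0.286 and 0.297 over 13987 genes, which is the source of the pairing, since the labels give only the numbers. Control 3 with EPS 4 (0.231) and control 4 with EPS 3 (0.253) were nearly as high, so the numbers do not single out these 2 pairs. Alternatives were DESeq2 1.42.0, limma 3.58.1 on log2(FPKM + 1) and log2(FPKM + 0.1), other scalings, no filter, offsets for length and GC content (mgcv 1.9.3), leaving out each library, and replicate sets. The fit was tested on simulated data. Genes named with full statistics were those called or at an unadjusted p under 0.05, the 10 most abundant members and the sensors' readouts, and from each other list up to 4 called genes or the most abundant one. The members and lists were chosen with earlier results of these data known.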

Additional observations from a re-analysis of the deposited data

Results flagged for a closer look

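Among the member values, 9 of 70 groups of 4 libraries held 1 library far from the other 3 (Dixon's 95% critical value), where chance gives about 1 in 20 groups. In the shallow control replicate 2, Hspa13 was at 76.7 CPM (27 fragments; the others 91.8 to 93.7). Canx was at 1176 CPM there (414 fragments; the others 747 to 770.4). Dnajb9 was at 88.1 CPM (31 fragments; the others 45.2 to 52.2), and Atf6b at 34.1 CPM (12 fragments; the others 21.0 to 23.2). In EPS replicate 2, Calr was low at 1125 CPM (the others 1589 to 1677). Also in EPS replicate 2, Edem1 was high at 73.6 CPM (48.0 to 49.8), Os9 at 184 CPM (160.1 to 164) and Derl1 at 153 CPM (97.2 to 105). In EPS replicate 3, Ssr1 was low at 185 CPM (205 to 209).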

How the results depend on the processing

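Against 0 members called by edgeR without the block, the replicate block gave 3, the block with length and GC offsets 2, DESeq2 3, the block without pair 2 gave 4 and replicates 1 and 2 alone gave 6. Leaving out 1 library gave 0 to 1. Of the other ER and stress lists 8 genes were called, with 17 under the replicate block, 16 with the block and offsets, 2 by limma on log2(FPKM + 0.1), 33 with the block without pair 2, 21 within replicates 1 and 2, and 6 to 9 leaving out 1 library. Over all genes 428 were called, with 1691 under the replicate block, 1333 with the block and offsets, 927 by DESeq2, 154 and 101 by limma on log2(FPKM + 1) and log2(FPKM + 0.1), 2457 with the block without pair 2, 1766 within replicates 1 and 2, 194 within replicates 3 and 4, and 119 to 537 leaving out 1 library. The members' median log2 fold change of 0.03 was -0.15 with the block and offsets, -0.19 with offsets alone, 0.14 within replicates 1 and 2, and -0.0126 to 0.0657 leaving out 1 library. The all-gene median was -0.12 with offsets alone, 0.147 without a filter and 0.169 by limma on log2(FPKM + 0.1). Calr, at -0.04, ran from -0.106 to 0.0722 leaving out 1 library (positive without EPS replicate 2), and was positive with the block without pair 2 (0.11) and within replicates 3 and 4 (0.14). Ern1 was at -0.00866 within replicates 3 and 4, and Xbp1 at 0.0522 within replicates 1 and 2. P4hb, at 0.03, was at -0.21 with the block and offsets, -0.23 with offsets alone, -0.0272 with upper-quartile scaling, -0.0149 without a filter, -0.0678 and -0.0680 by limma, -0.0252 with the block without pair 2, -0.0441 within replicates 3 and 4, and -0.0957 to 0.1065 leaving out 1 library. The cause was not tested. None of these P4hb, Calr, Ern1 and Xbp1 values that changed sign was past the threshold. Control replicate 2, with 0.354 M fragments, limits every value of pair 2.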

Other observations

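Partners of VCP outside the 36 genes were chosen after their values were seen. Nploc4, a cofactor that guides VCP to ubiquitin-marked proteins, was at 146 ± 11.1 CPM in control and 254 ± 86.6 CPM in EPS (mean ± SD, n = 4 each), and edgeR gave an adjusted p of 0.0916 without the block, 0.0155 with it and 0.0685 with the block and length and GC offsets. Faf2 and Ubxn4, membrane proteins that recruit VCP, had log2 fold changes with the block of 0.56 and 0.64 (edgeR adjusted p = 0.0366 and 0.01005), and with the added offsets adjusted p = 0.158 and 0.0960. Ufd1, which pairs with Nploc4, had a log2 fold change of 0.26 with the block (edgeR adjusted p = 0.233).

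Ero1b, an oxidase that recharges disulfide isomerases, had a log2 fold change of 0.86 with the block (edgeR adjusted p = 0.0157), and Tmx4, a membrane thioredoxin-like protein, had -0.47 (edgeR adjusted p = 0.0329). With the block and length and GC offsets, their edgeR adjusted p was 0.0547 and 0.0198, so Ero1b was no longer called. Neither was called without the block (edgeR adjusted p = 0.130 and 0.238). Mrln, which encodes the calcium pump inhibitor myoregulin, went from 3.83 ± 1.47 to 1.40 ± 0.454 CPM (mean ± SD, n = 4 each), with an edgeR adjusted p of 0.0282 with the block and 0.115 without it. Its control mean lies below the 8.46 CPM that 3 fragments make in control replicate 2, so its value in that library rests on very few fragments.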
